A study of Arabidopsis thaliana with 24 samples.

Results

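Transcript levels of 9 regulators of flavonoid synthesis were followed through 8 groups of Arabidopsis thaliana seedlings. They were picked by locus and comprise the MYB activators of flavonol genes MYB11 (AT3G62610), MYB12 (AT2G47460) and MYB111 (AT5G49330), and the MYB activators of anthocyanin genes PAP1 (AT1G56650) and PAP2 (AT1G66390). The bHLH factors TT8 (AT4G09820) and EGL3 (AT1G63650), the small MYB repressor MYBL2 (AT1G71030) and the WD40-repeat protein TTG1 (AT5G24520) complete the set. All 9 were found in both deposited tables, which together list 23842 genes.

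Flavonoids are made from phenylalanine through chalcone. An early set of enzymes leads to flavonols, which screen ultraviolet light, and a late set leads to the red anthocyanins. MYB11, MYB12 and MYB111 switch on the early enzymes without a bHLH partner. The late enzymes depend on a complex of a MYB such as PAP1 or PAP2, a bHLH such as TT8, EGL3 or GL3, and TTG1, which holds the complex together. MYBL2 lacks an activation domain and blocks the complex. In seedlings light favours both branches, in part through the bZIP factors HY5 and HYH, and warmth is known to lower anthocyanin.

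RNA of whole seedlings, 7 days old and raised at 21 °C in short days, was sequenced in 24 libraries with 3 replicates in each group. Wild-type Col and the mutant ino80-5 in the Col ecotype, called ino80 here, either stayed at 21 °C or were moved to 27 °C, and were sampled after 1 h or 12 h. The motor subunit of a nucleosome-remodelling complex is encoded by INO80, and the study asked what it does for the growth response to mild warmth. The mutant is represented by a single allele. Separate cultures for the replicates are not stated in the labels, so p-values measure the spread between these samples. Levels are TPM, a transcript's share of its library after division by gene length, scaled by the authors to one fixed total per library. Because each time has its own table, levels at 1 h and 12 h are set side by side but not tested against each other. Time of day and light at sampling may also differ between the 1 h and 12 h groups, and their part was not tested.

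By estimate, the 1 h libraries ranged from 13 to 25.3 M fragments in depth and the 12 h libraries from 13.4 to 15.7 M. INO80 itself was lower in all 3 ino80 libraries than in all 3 Col libraries at either temperature and time, for example 12.6 to 14.8 against 17 to 20.3 TPM at 21 °C and 1 h. Green tissue markers (RBCS1A, CAB1 and LHB1B1) summed to 55175 to 68427 TPM at 1 h. At 12 h their sum was lower at 27 °C, at 39100 to 43263 against 53861 to 61079 TPM in Col and 30679 to 35097 against 49516 to 55213 TPM in ino80. Of the 3, RBCS1A and CAB1 fell and LHB1B1 rose in each genotype, and CAB1 was lower in ino80 than in Col at both temperatures at 12 h. The other markers were less uniform at 12 h. LHB1B1 averaged 511 TPM in ino80 against 690 TPM in Col at 21 °C, and 1592 against 1401 TPM at 27 °C. RBCS1A averaged 30010 against 30942 TPM at 21 °C and 17750 against 19877 TPM at 27 °C. Markers of the seed coat, where TT8 and TTG1 also act, summed to at most 1.53 TPM, and TT2 was listed in neither table. Seed markers (CRA1, CRU3 and OLEO1) summed to 8.16 to 15.5 TPM in Col and 58.7 to 77.0 TPM in ino80 at 1 h, and to 1.43 to 19.1 and 15.3 to 39.9 TPM at 12 h. The root markers PYK10, IRT1 and EXT3 were less uniform. PYK10, which makes up most of their sum, was higher in ino80 in all 4 genotype comparisons, with means of 1828 to 3843 TPM against 1487 to 2193 TPM. EXT3 was higher at 12 h and not called at 1 h (313 and 309 TPM in Col and ino80 at 27 °C), and IRT1 was higher at 21 °C and 1 h alone, with 52.2 and 41.2 TPM in Col and ino80 at 21 °C and 12 h. Epidermis markers (ATML1, PDF1 and FDH) summed to 600 to 883 TPM, and were lower in ino80 at 12 h, at 600 to 666 against 786 to 883 TPM. Floral organ markers (PI, AG and AP3) reached at most 3.28 TPM, and PI alone was abundant enough to be tested. PI was higher in ino80 in all 4 genotype comparisons, for example at 27 °C and 12 h, where the 3 summed to 2.85 to 3.28 against 0.311 to 1.31 TPM. AP3 went the other way, at 0 in every ino80 library at 21 °C and at 27 °C and 12 h. In no Col group was AP3 at 0 throughout. In whole seedlings, fewer cells of a type and less RNA per cell cannot be told apart, and the part of these marker differences in the warmth and genotype results below was not tested.

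The 250 bases before the annotated start were read for each gene from the RefSeq assembly TAIR10.1 and searched on both strands for ACGT, the core bound by bZIP factors such as HY5, for CACGTG, the G-box that contains it, and for GAANNTTC, a heat shock element core. Shown first are the windows of the 3 flavonol MYBs, which moved together at 1 h, from MYB11 (chr3:23154380-23154629, plus strand), MYB12 (chr2:19476076-19476325, plus strand) and MYB111 (chr5:20001573-20001822, minus strand). Capitals mark the motifs.
MYB11: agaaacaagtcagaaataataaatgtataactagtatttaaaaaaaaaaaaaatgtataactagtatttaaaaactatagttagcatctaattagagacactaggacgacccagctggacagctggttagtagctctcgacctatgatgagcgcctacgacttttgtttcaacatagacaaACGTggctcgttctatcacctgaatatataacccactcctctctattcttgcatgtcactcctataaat
MYB12: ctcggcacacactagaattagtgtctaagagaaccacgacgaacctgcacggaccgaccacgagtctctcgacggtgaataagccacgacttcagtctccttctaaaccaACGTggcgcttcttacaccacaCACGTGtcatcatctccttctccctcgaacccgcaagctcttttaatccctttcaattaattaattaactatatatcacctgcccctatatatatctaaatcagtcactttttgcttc
MYB111: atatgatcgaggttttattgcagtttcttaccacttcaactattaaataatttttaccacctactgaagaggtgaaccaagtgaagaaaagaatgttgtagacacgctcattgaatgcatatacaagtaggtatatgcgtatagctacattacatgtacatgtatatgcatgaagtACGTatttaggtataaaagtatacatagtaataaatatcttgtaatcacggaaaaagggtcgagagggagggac
ACGT occurred in all 3 of these windows and in 7 of the 9 regulators, against 44.1% of 27443 promoters of the same length. MYB12 also held CACGTG, 118 bases before the start, a motif found in 6.49% of promoters.

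The windows of the anthocyanin MYBs are shown because these related genes differ in the motifs they hold. They are those of PAP1 (chr1:21235293-21235542, minus strand) and PAP2 (chr1:24763691-24763940, plus strand).
PAP1: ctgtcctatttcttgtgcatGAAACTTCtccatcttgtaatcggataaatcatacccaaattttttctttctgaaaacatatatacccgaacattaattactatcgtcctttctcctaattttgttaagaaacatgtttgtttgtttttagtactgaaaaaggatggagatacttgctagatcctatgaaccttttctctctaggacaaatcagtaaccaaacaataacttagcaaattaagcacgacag
PAP2: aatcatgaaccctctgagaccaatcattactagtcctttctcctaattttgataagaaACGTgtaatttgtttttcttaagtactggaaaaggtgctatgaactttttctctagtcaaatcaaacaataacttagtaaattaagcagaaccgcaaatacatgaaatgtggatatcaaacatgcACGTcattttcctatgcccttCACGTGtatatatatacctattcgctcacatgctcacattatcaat
PAP2 held ACGT at 3 places, one of them within CACGTG, while PAP1 held no ACGT and had GAANNTTC, a motif in 9.55% of promoters, 230 bases before its start. MYBL2 was the other gene with GAANNTTC and the other without ACGT, and its window overlaps the neighbouring gene AT1G71040. These are matches of letters, not measured binding.

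Differences below are of log2(TPM + 1), ± SE, for 3 libraries against 3, tested with limma and Benjamini-Hochberg adjustment over all tested genes, and a difference was called at an adjusted p under 0.05. Each SE rests on a spread shared by all 12 libraries of its time, so libraries outside a comparison also affect its p. The added 1 understates the change of low genes, and 5 in its place kept all 36 calls made on the regulators over the 10 comparisons but shrank low genes, for example MYB111 with warmth in Col at 1 h from -1.64 to -1.04. At 1 h all 9 regulators were tested. Warmth raised 2 and lowered 5 of them in Col, where 15.7% of 19190 genes were called higher and 18.5% lower. In ino80 it raised 0 and lowered 5, where 15.2% of genes were called higher and 16.8% lower. The regulators' median difference was -0.35 in Col and -0.24 in ino80, against 0.00 over all genes in each. In ino80 against Col at 1 h, 4 were higher and 1 lower at 21 °C (15.4% and 20.5% of genes), and the same counts held at 27 °C (17.1% and 20.4% of genes), with medians of 0.30 and 0.29 against -0.03 and -0.01 over all genes.

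At 12 h PAP2 and MYB11 had fallen under the minimum of 1 TPM in 3 libraries, so 7 regulators were tested. Warmth raised 1 and lowered 4 in Col, where 36.8% of 19578 genes were called higher and 21.8% lower, and raised 2 and lowered 3 in ino80, where 38.1% were called higher and 19.3% lower. With so many genes called, these counts say little of the regulators as a set. The median of all genes lay at 0.13 in Col and 0.15 in ino80 in these comparisons and at 0.01 after median-of-ratios or quantile scaling, so changes relative to that median are added where a result is small. Between genotypes at 12 h, 2 regulators were higher in ino80 at 21 °C, as were 16.7% of genes, and 1 at 27 °C, as were 18.7%, and none was lower, beside 12.1% and 11.5% of genes. The genotype by temperature interaction called 1 regulator at 1 h, PAP1, whose difference with warmth was lower in ino80 than in Col (-0.24 against 0.18). At that time the interaction called 1.09% of genes higher and 0.792% lower. At 12 h it called 0 regulators, beside 0.327% and 0.424% of genes. The unadjusted p was under 0.05 for PAP1, PAP2 and MYBL2 at 1 h and for MYB111 and MYBL2 at 12 h. The share of all genes under that unadjusted threshold was not counted, so the percentages above are no measure for it.

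**Figure D1:**
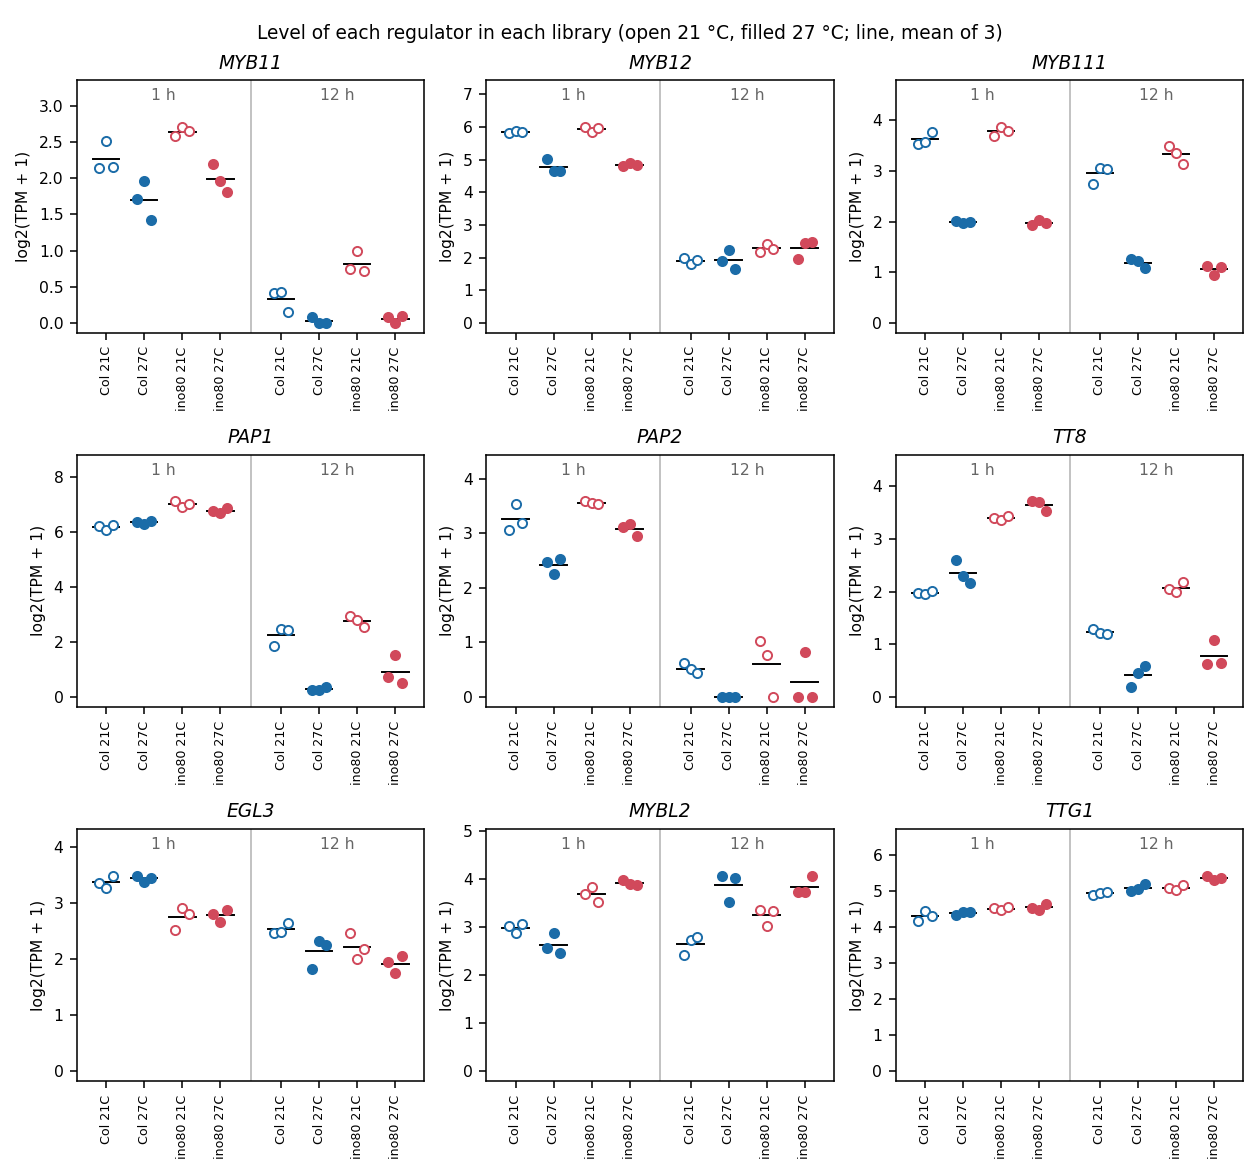
Level of each regulator in every library as log2(TPM + 1), by group, with open points for 21 °C, filled points for 27 °C, blue for Col, red for ino80 and a line at the mean of 3 libraries. MYB12 and MYB111 stood lower at 27 °C than at 21 °C in every library at 1 h, TT8 stood higher in ino80 than in Col at matched temperature and time, and MYBL2 stood higher at 27 °C at 12 h.

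The flavonol MYBs fell within 1 h of warmth in both genotypes. MYB12, the most abundant of the 3 at this time, measured 55.0, 57.9 and 55.8 TPM in Col at 21 °C and 31.5, 24.2 and 24.2 TPM at 27 °C. In ino80 it measured 62.5, 55.9 and 61.0 TPM at 21 °C and 26.8, 28.5 and 27.7 TPM at 27 °C. The groups at the 2 temperatures did not overlap, and the fall was 1.06 on the log2 scale in Col (-1.06 ± 0.08, adjusted p = 7.7e-08) and nearly equal in ino80 (-1.08 ± 0.08, adjusted p = 6.3e-08). The test of that difference gave -0.02, with an interval from -0.27 to 0.23.

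MYB111 fell further, from 10.6, 10.9 and 12.7 TPM to 3.03, 2.92 and 2.98 TPM in Col and from 11.9, 13.5 and 12.9 TPM to 2.83, 3.11 and 2.89 TPM in ino80. Its libraries at 27 °C were tightly grouped in both genotypes, with means of 2.98 and 2.95 TPM. The differences were -1.64 ± 0.09 and -1.80 ± 0.09, with an interaction of -0.17 ± 0.13 (adjusted p = 0.63). MYB11 was the scarcest of the 3, with 3.41, 4.74 and 3.47 TPM at 21 °C and 2.28, 2.90 and 1.68 TPM at 27 °C in Col, and it fell in Col (-0.57 ± 0.15, adjusted p = 0.0067) and ino80 (-0.66 ± 0.15, adjusted p = 0.0028). MYB11 overlaps the annotated gene AT3G62615 by 495 bases, and since the use of strand is not stated its values are uncertain.

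After 12 h the flavonol MYBs no longer moved together. MYB111 was again lower at 27 °C, with 1.39, 1.32 and 1.12 TPM against 5.72, 7.35 and 7.21 TPM in Col, and 1.17, 0.937 and 1.16 TPM against 10.3, 9.22 and 7.76 TPM in ino80. Its falls of -1.76 ± 0.14 (adjusted p = 6e-08) and -2.27 ± 0.14 (adjusted p = 6.3e-09) were the largest of the 7 regulators tested in ino80 and the second largest after PAP1 in Col. The interaction of -0.50 ± 0.19 missed the threshold (adjusted p = 0.31). MYB12 measured 2.93, 2.49 and 2.77 TPM at 21 °C and 2.69, 3.70 and 2.15 TPM at 27 °C in Col, and the groups overlapped. Its differences of 0.03 ± 0.17 in Col, with an interval from -0.34 to 0.39, and 0.00 ± 0.17 in ino80, with an interval from -0.37 to 0.37, became -0.10 and -0.15 relative to the median of all genes. MYB11 was at 0 in 2 of the 3 Col libraries and 1 of the 3 ino80 libraries at 27 °C, and at 0.115 to 0.984 TPM in the 6 libraries at 21 °C, which is at most about 12 fragments.

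The make-up of the group therefore differed between the tables. MYB12 gave 78.7% ± 1.08 (SD, n = 3) of the summed TPM of the 3 genes in Col at 21 °C and 1 h, and MYB111 15.9% ± 1.51. At 12 h in the same genotype and temperature MYB111 gave 69.1% ± 4.70 and MYB12 28.2% ± 4.16, while the sum was 9.76 TPM against 71.5 TPM at 1 h. At 27 °C and 12 h MYB12 was again the larger part, at 68.1% ± 4.81 in Col and 77.0% ± 6.48 in ino80. Within each time the shares in Col and ino80 at 21 °C overlapped for MYB12 and MYB111.

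No difference between genotypes was called for a flavonol MYB, and MYB11 was not tested at 12 h. At 1 h the differences of ino80 from Col were 0.09 ± 0.08 for MYB12, 0.15 ± 0.09 for MYB111 and 0.37 ± 0.15 for MYB11 at 21 °C, with adjusted p-values of 0.46, 0.20 and 0.061. MYB11 was called there in 7 of 18 alternatives, namely median-of-ratios and quantile scaling (0.40 and 0.42), the replicate block (0.37), a pseudocount of 5 (0.21), and without Col 21 °C replicate 2 or Col 27 °C replicates 2 or 3 (0.37 to 0.50). At 27 °C they were 0.06 ± 0.08, -0.01 ± 0.09 and 0.29 ± 0.15. At 12 h and 21 °C MYB111 was 0.38 ± 0.14 higher (adjusted p = 0.051) and MYB12 0.39 ± 0.17 (adjusted p = 0.11), with all 3 ino80 libraries above all 3 Col libraries for each. The untested MYB11 did not overlap there either, at 0.652 to 0.984 TPM in ino80 and 0.115 to 0.346 TPM in Col, all near the floor. The share of all genes without overlap there was not counted, so this separation adds nothing to the test.

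**Figure D2:**
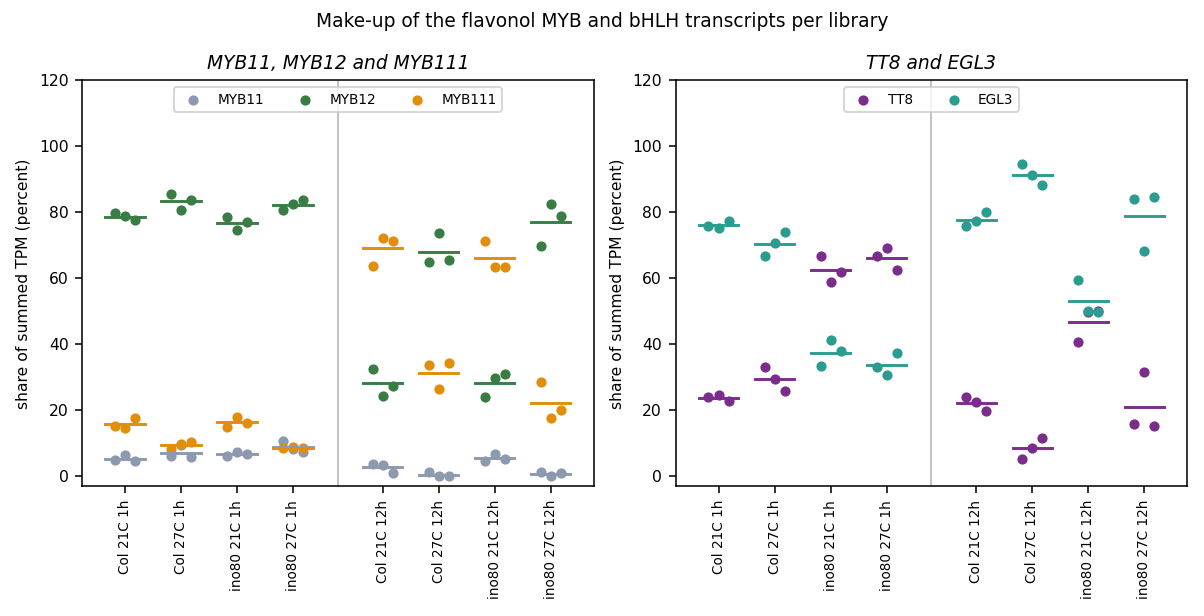
Share of each gene in the summed TPM of the flavonol MYBs (left) and of TT8 and EGL3 (right), in percent, with a point per library and a line at the mean of 3. MYB12 makes up most of its group at 1 h and MYB111 at 21 °C and 12 h, and TT8 passes EGL3 in ino80 at 1 h but not in Col.

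The anthocyanin MYBs PAP1 and PAP2 were of unequal abundance at 1 h. With warmth both fell in ino80, while in Col PAP2 fell and PAP1 had a small rise that 7 of 18 alternatives did not keep. PAP1 was the most abundant regulator at that time, with 73.1, 66.6 and 75.1 TPM in Col at 21 °C and 82.3, 77.6 and 82.9 TPM at 27 °C. In ino80 it measured 138, 121 and 128 TPM at 21 °C and 108, 103 and 117 TPM at 27 °C. The order of the groups was Col at 21 °C, Col at 27 °C, ino80 at 27 °C and ino80 at 21 °C, with no overlap between neighbours. Warmth thus went with a small rise in Col (0.18 ± 0.06, adjusted p = 0.041) and a small fall in ino80 (-0.24 ± 0.06, adjusted p = 0.0089), and the interaction was -0.41 ± 0.09 (adjusted p = 0.027). The rise in Col was not called without any of Col 21 °C replicates 1 and 2, Col 27 °C replicates 1 and 3 and ino80 27 °C replicate 1, nor after median-of-ratios scaling or without the filter, and the fall in ino80 was not called without ino80 21 °C replicate 1 (adjusted p = 0.053). The interaction was not called after median-of-ratios scaling (adjusted p = 0.067) nor without any of Col 27 °C replicates 1 and 3, ino80 21 °C replicates 1 and 3 and ino80 27 °C replicates 1 and 2, and its value ran from -0.46 to -0.36 over the libraries left out.

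PAP1 was higher in ino80 than in Col at 1 h at 21 °C and at 27 °C, by 0.84 ± 0.06 and 0.43 ± 0.06 (adjusted p = 7.5e-08 and 6.8e-05). PAP2 measured 7.30, 10.5 and 8.10 TPM in Col at 21 °C and 4.54, 3.79 and 4.78 TPM at 27 °C, and fell with warmth by 0.83 on the log2 scale (-0.83 ± 0.12, adjusted p = 3.6e-05). In ino80 PAP2 went from 11, 10.7 and 10.6 TPM to 7.66, 8.05 and 6.70 TPM (-0.47 ± 0.12, adjusted p = 0.0051). PAP2 was higher in ino80 at 27 °C (0.66 ± 0.12, adjusted p = 0.00036), and at 21 °C its difference of 0.30 ± 0.12 missed the threshold (adjusted p = 0.057), which it passed after median-of-ratios and quantile scaling (0.33 and 0.32), with a pseudocount of 5 (0.21) and without Col 21 °C replicate 2 (0.43). PAP2 lies among the near-identical copies MYB113 and MYB114, and reads could be split between them. MYB114 was at most 0.135 TPM in any library.

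At 12 h both anthocyanin MYBs stood far lower. PAP1 measured 2.60, 4.61 and 4.38 TPM in Col at 21 °C and 0.195, 0.203 and 0.284 TPM at 27 °C, the latter about 2 fragments per library. In ino80 it measured 6.82, 5.99 and 4.94 TPM at 21 °C and 0.660, 1.91 and 0.440 TPM at 27 °C, with replicate 2 apart from the others. It fell with warmth in Col (-1.96 ± 0.24, adjusted p = 6e-06) and in ino80 (-1.85 ± 0.24, adjusted p = 1.2e-05). The size in Col depends on the added constant and was -3.57 with 0.1 in place of 1. The genotypes did not overlap at either temperature, but the differences of 0.53 ± 0.24 and 0.64 ± 0.24 missed the threshold (adjusted p = 0.12 and 0.056). Here too the share of all genes without overlap was not counted. PAP2 was listed at 0 in all 3 Col libraries at 27 °C and at 0.539, 0.423 and 0.350 TPM at 21 °C, and in ino80 it was at 0 in 1 library at 21 °C and 2 at 27 °C.

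The bHLH partners TT8 and EGL3 were called in opposite directions in the mutant at 1 h. TT8 measured 2.93, 2.87 and 3.01 TPM in Col at 21 °C and 1 h, and 9.54, 9.29 and 9.80 TPM in ino80. At 27 °C it measured 5.11, 3.94 and 3.48 TPM in Col and 12.1, 12.0 and 10.6 TPM in ino80. No group overlapped another, and TT8 was higher in ino80 by 1.42 ± 0.11 at 21 °C and 1.29 ± 0.11 at 27 °C (adjusted p = 7.5e-08 and 2.4e-07). These were the largest genotype differences of the 9 regulators at each temperature, with MYBL2 nearly level at 27 °C (1.28). EGL3 measured 9.25, 8.69 and 10.2 TPM in Col and 4.76, 6.52 and 6.01 TPM in ino80 at 21 °C, and was lower by 0.63 on the log2 scale (-0.63 ± 0.10, adjusted p = 0.00023). At 27 °C its difference was -0.66 ± 0.10 (adjusted p = 0.00014), again without overlap. At 12 h EGL3 was not called between genotypes and its libraries overlapped. It differed by -0.31 ± 0.16 at 21 °C and -0.22 ± 0.16 at 27 °C (adjusted p = 0.17 and 0.34).

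The balance of the pair differed accordingly. TT8 gave 23.9% ± 1.03 of their summed TPM in Col at 21 °C and 1 h and 62.5% ± 3.99 in ino80 (SD, n = 3), and 29.5% ± 3.68 against 66.2% ± 3.38 at 27 °C. The sum itself was 12.3 TPM in Col and 15.3 TPM in ino80 at 21 °C. At 12 h TT8 gave 22.2% ± 2.08 in Col and 46.9% ± 5.41 in ino80 at 21 °C, and 8.59% ± 3.19 and 21.0% ± 9.28 at 27 °C. The ranges of the genotypes did not overlap at any of these temperatures and times. The third bHLH of this family, GL3, was lower than EGL3 throughout, with group means of 0.390 to 2.62 TPM.

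With warmth TT8 rose in Col at 1 h and fell in both genotypes at 12 h, and EGL3 was called once, in Col at 12 h. The rise of TT8 in Col at 1 h (0.38 ± 0.11, adjusted p = 0.011) was not called without Col 27 °C replicate 1 (0.26, adjusted p = 0.064), and its difference in ino80 was 0.25 ± 0.11 (adjusted p = 0.086). EGL3 differed by 0.07 ± 0.10 and 0.03 ± 0.10. At 12 h TT8 fell from 1.44, 1.34 and 1.30 TPM to 0.146, 0.380 and 0.504 TPM in Col (-0.82 ± 0.17, adjusted p = 0.00072) and from 3.12, 3.0 and 3.57 TPM to 0.543, 1.11 and 0.576 TPM in ino80 (-1.29 ± 0.17, adjusted p = 1.3e-05). With 0.1 as the added constant these were -1.82 and -2.04. TT8 was higher in ino80 at 21 °C and 12 h (0.84 ± 0.17, adjusted p = 0.0019), while the 0.37 ± 0.17 at 27 °C missed the threshold (adjusted p = 0.11). EGL3 fell by 0.39 on the log2 scale in Col at 12 h (-0.39 ± 0.16, adjusted p = 0.048). Over all 18 alternatives its adjusted p ran from 0.011 to 0.22, and 11 of them did not keep the call. Of those 11, 8 left out a single library, namely any Col 21 °C replicate, Col 27 °C replicates 1 and 3, ino80 21 °C replicate 3, or ino80 27 °C replicates 1 and 3, and without Col 27 °C replicate 1 the value was -0.24. In ino80 EGL3 differed by -0.30 ± 0.16 (adjusted p = 0.12), and was called after median-of-ratios and quantile scaling (-0.42 each).

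MYBL2, the repressor, was higher in the mutant at 1 h and higher with warmth at 12 h. At 1 h it measured 7.12, 6.34 and 7.33 TPM in Col at 21 °C and 4.96, 6.33 and 4.54 TPM at 27 °C, and 11.8, 13.4 and 10.5 TPM in ino80 at 21 °C and 14.7, 13.9 and 13.7 TPM at 27 °C. All 6 ino80 libraries lay above all 6 Col libraries, by 0.70 ± 0.11 at 21 °C and 1.28 ± 0.11 at 27 °C (adjusted p = 0.00012 and 3.4e-07). Warmth lowered it in Col (-0.35 ± 0.11, adjusted p = 0.022), a call lost without Col 21 °C replicates 1 or 3 or Col 27 °C replicates 1 or 3, with -0.26 as the smallest size. In ino80 the difference was 0.23 ± 0.11 (adjusted p = 0.12) and the interaction 0.58 ± 0.15 (adjusted p = 0.074).

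At 12 h MYBL2 rose with warmth, from 4.37, 5.64 and 5.98 TPM to 15.8, 10.5 and 15.4 TPM in Col (1.22 ± 0.16, adjusted p = 1.3e-05) and from 9.26, 7.19 and 9.16 TPM to 12.2, 12.3 and 15.8 TPM in ino80 (0.60 ± 0.16, adjusted p = 0.0053). These are 1.09 and 0.45 relative to the median of all genes, and the interaction of -0.62 ± 0.23 missed the threshold (adjusted p = 0.27). The genotypes differed at 21 °C (0.59 ± 0.16, adjusted p = 0.012, lost without Col 21 °C replicate 1 or ino80 21 °C replicate 3) and overlapped at 27 °C, with means of 13.9 and 13.4 TPM (-0.03 ± 0.16, interval -0.37 to 0.31). Set beside PAP1, MYBL2 had the lower mean in all 4 groups at 1 h and the higher mean in all 4 groups at 12 h, in the table scaled apart. In Col at 1 h PAP1 averaged 71.6 TPM and MYBL2 6.93 TPM at 21 °C, and 80.9 and 5.28 TPM at 27 °C. At 12 h they averaged 3.87 and 5.33 TPM at 21 °C and 0.227 and 13.9 TPM at 27 °C, so the order at 12 h was the same with and without warmth.

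TTG1, the scaffold, differed by at most 0.28 on the log2 scale in any of the 8 warmth and genotype comparisons. Its group means ran from 18.7 to 22.4 TPM at 1 h and from 29.5 to 40.0 TPM at 12 h. At 1 h its differences with warmth were 0.09 ± 0.07 and 0.04 ± 0.07, and it was higher in ino80 at 21 °C (0.21 ± 0.07, adjusted p = 0.034). That call was lost without Col 21 °C replicates 1 or 3 or ino80 21 °C replicates 1 or 3, and without Col 21 °C replicate 1 the value was 0.14. At 12 h TTG1 measured 30.6, 32.3 and 35.5 TPM in Col and 41.7, 38.6 and 39.6 TPM in ino80 at 27 °C, a difference of 0.28 ± 0.07 (adjusted p = 0.008). It was called higher with warmth in ino80 (0.27 ± 0.07, adjusted p = 0.0047), which is 0.12 relative to the median of all genes and was not called after median-of-ratios or quantile scaling (0.11 and 0.11).

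**Figure D3:**
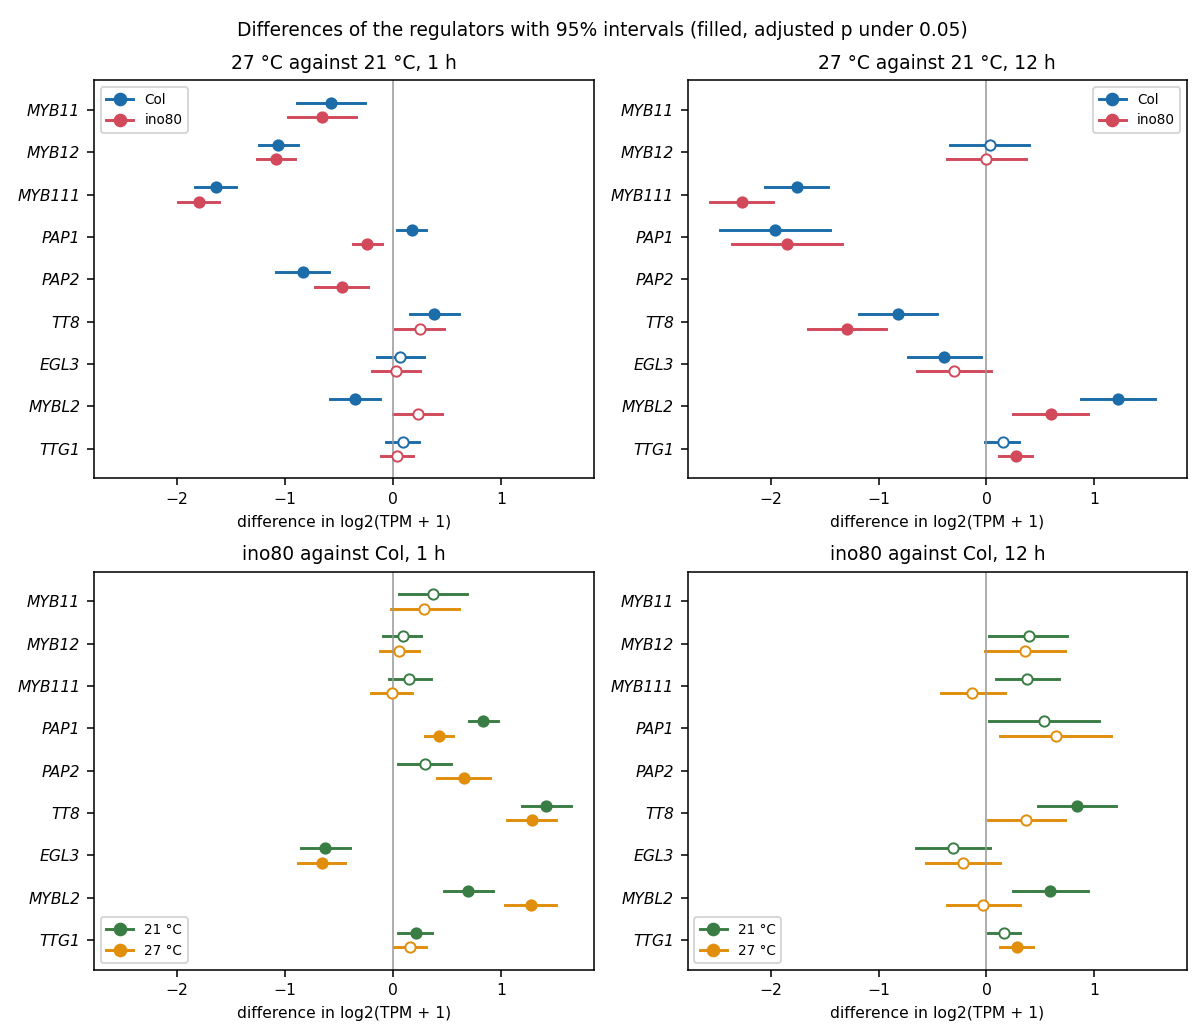
Differences in log2(TPM + 1) of each regulator, with 95% intervals from the fit, for 27 °C against 21 °C (top) and ino80 against Col (bottom) at 1 h (left) and 12 h (right). Filled points are called; MYB111 fell in all 4 warmth comparisons, and TT8 and EGL3 lie on opposite sides of 0 in the genotype comparisons at 1 h. PAP2 and MYB11 were not tested at 12 h.

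The enzymes and the regulators of a branch did not all move the same way. At 1 h, 7 of 8 late anthocyanin enzymes rose with warmth in Col and 6 in ino80, with medians of 0.95 and 0.84, and none fell. LDOX, the anthocyanidin synthase, rose by 1.48 ± 0.07 in Col and 1.01 ± 0.07 in ino80, and DFR, which makes its substrate, by 1.42 ± 0.07 and 0.94 ± 0.07 (adjusted p from 3.5e-10 to 6.4e-08), while PAP1 changed by 0.18 and -0.24 and PAP2 fell. TT8 was called higher in Col (0.38) and was not called in ino80 (0.25). MYBL2, the repressor, was called lower in Col (-0.35) and was not called in ino80 (0.23). EGL3 was called in neither (0.07 and 0.03). Of the 9 early enzymes, 4 rose and 5 fell in Col, and 1 rose and 5 fell in ino80, with MYB12 and MYB111 lower in both. TT4, the chalcone synthase, rose by 0.46 ± 0.04 in Col (adjusted p = 2.8e-07) and 0.34 ± 0.04 in ino80 (adjusted p = 8.7e-06), FLS1, the flavonol synthase, by 0.25 ± 0.04 in Col (adjusted p = 0.00038), and F3H fell by 0.53 on the log2 scale in each (-0.53 ± 0.04 and -0.53 ± 0.04).

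At 12 h both enzyme sets fell with warmth. All 9 early enzymes fell in Col and in ino80, with medians of -1.87 and -2.14, and 7 and 8 of the 8 late enzymes fell, with medians of -3.18 and -3.12, against 0.13 and 0.15 over all genes. LDOX fell by 4.19 on the log2 scale in Col (-4.19 ± 0.27) and FLS1 by 3.11 (-3.11 ± 0.19). In ino80 LDOX differed by -3.21 ± 0.27, DFR by -3.71 ± 0.29, TT4 by -3.0 ± 0.21 and FLS1 by -2.70 ± 0.19, with adjusted p-values of at most 1.6e-07. On the same scale the fall of LDOX in Col stood beside -1.96 for PAP1, -0.82 for TT8 and -0.39 for EGL3. That of FLS1 stood beside -1.76 for MYB111 and 0.03 for MYB12.

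Most late enzymes were higher in the mutant. PAP1 and TT8 were called higher there as well at 1 h, and at 12 h TT8 alone of the pair, at 21 °C. The repressor MYBL2 was also called higher at 1 h, by 0.70 at 21 °C and 1.28 at 27 °C. EGL3, a bHLH of the same complex, was called lower at 1 h (-0.63 and -0.66). All 8 late enzymes were higher in ino80 at 1 h at 21 °C and at 27 °C (medians 1.10 and 0.92), and 7 and 6 of 8 at 12 h (medians 1.32 and 1.47). 5MAT, an anthocyanin malonyltransferase, was 1.68 ± 0.07 higher at 21 °C and 1 h (adjusted p = 1.5e-10). Among the early enzymes 3 were higher and 2 lower at 21 °C and 1 h, and TT7, the hydroxylase that feeds the anthocyanin branch, was the highest at 0.75 ± 0.06 (adjusted p = 1.4e-07). At 12 h, 4 and 5 of 9 early enzymes were higher and none lower. The interaction at 1 h was called for DFR (-0.48 ± 0.10, adjusted p = 0.023), LDOX (-0.47 ± 0.10, adjusted p = 0.028) and 5MAT (-0.41 ± 0.09, adjusted p = 0.041), beside -0.41 for PAP1, and for none of the early enzymes. It was not particular to the anthocyanin branch. Of the 7 general phenylpropanoid enzymes described below, 4 were called lower (median -0.36), against 3 of the 8 late enzymes (median -0.22). The proanthocyanidin genes of the seed coat (BAN, TT12, TT10 and AHA10) were mostly under the filter, with 1 of 4 tested and none called in any comparison.

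**Figure D4:**
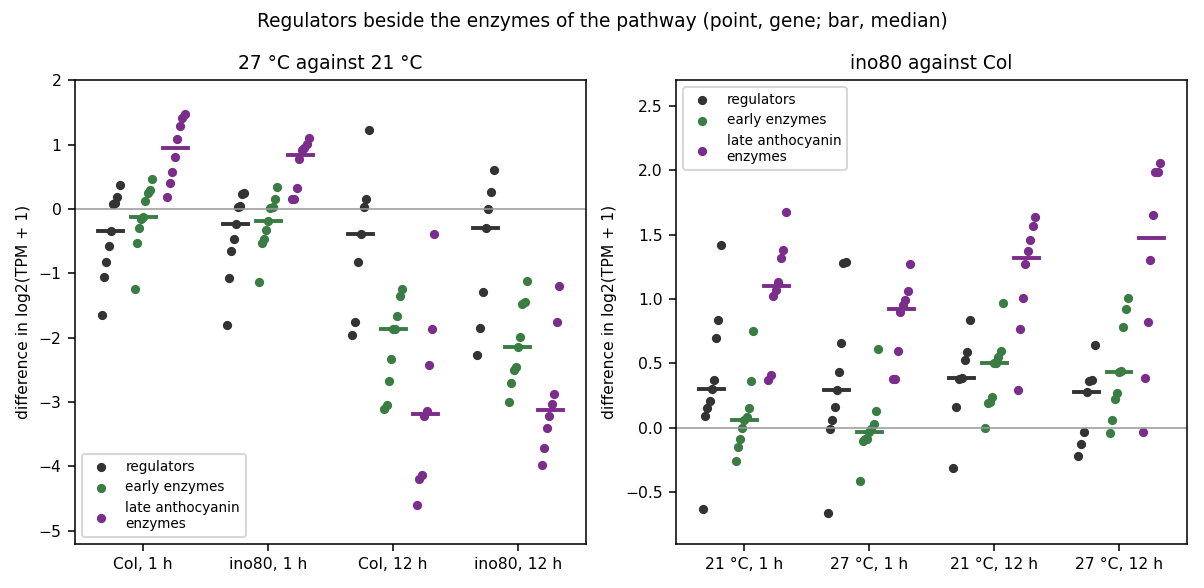
Differences in log2(TPM + 1) of the tested regulators, the 9 early and the 8 late enzymes, with a point per gene and a bar at the median, for 27 °C against 21 °C (left) and ino80 against Col (right). Late enzymes lie above 0 at 1 h and below 0 at 12 h with warmth, and mostly above 0 in ino80.

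Of the 7 general phenylpropanoid enzymes, which supply the pathway, 1 rose and 3 fell with warmth in Col at 1 h, and 1 rose and 5 fell in ino80. PAL2, a phenylalanine ammonia-lyase, fell most by the moderated statistic, by 1.09 on the log2 scale in Col (-1.09 ± 0.04, adjusted p = 1.2e-11) and 1.60 in ino80 (-1.60 ± 0.04, adjusted p = 3.1e-13). At 12 h 6 of 7 fell in each genotype. Between genotypes at 1 h, 3 were lower in ino80 at 21 °C and 7 at 27 °C, and none was higher.

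Of 18 other regulators of the pathway, 14 were tested at 1 h, and 3 rose and 8 fell with warmth in Col and 1 rose and 8 fell in ino80. HYH fell by 1.13 on the log2 scale in Col (-1.13 ± 0.06, adjusted p = 5.9e-10) and 1.25 in ino80 (-1.25 ± 0.06, adjusted p = 2.4e-10), HY5 by 1.17 (-1.17 ± 0.09) and 1.04 (-1.04 ± 0.09), and MYB4, a MYB repressor of phenylpropanoid genes, by 1.20 (-1.20 ± 0.06) and 1.15 (-1.15 ± 0.06). At 12 h 13 were tested. HYH was again lower (-2.13 ± 0.15 in Col and -1.79 ± 0.15 in ino80), as was HY5 (-0.43 ± 0.08 and -0.48 ± 0.08), and PIF3 was higher (1.01 ± 0.09 and 1.16 ± 0.09). In ino80 at 1 h, 4 were higher and 5 lower at 21 °C, and 3 higher and 5 lower at 27 °C. The lower ones included LBD37, LBD38 and LBD39, nitrate-induced repressors of anthocyanin genes, at -0.81 ± 0.07, -0.53 ± 0.05 and -0.69 ± 0.11 at 21 °C (adjusted p = 3.6e-07, 2e-06 and 0.00021). HY5 did not pass the test between genotypes at 1 h (-0.04 ± 0.09 and 0.09 ± 0.09).

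Genes whose levels ran most like a regulator's were ranked by Pearson's r of log2(TPM + 1) over the 24 libraries, each table centred on its own mean, among 18827 genes. These libraries share the 8 groups, so r describes the pattern over groups and carries no p. PAP1 ran closest to TT19 (r = 0.976), a glutathione S-transferase needed for anthocyanin to reach the vacuole, then TT7 (0.970) and 5MAT (0.965). MYB111 ran closest to SPA3 (0.975), a partner of the ubiquitin ligase COP1, and UGT84A2 (0.975), a sinapate glucosyltransferase. MYBL2 ran with AT5G01740 (0.917), ACX2 (0.912) and UVR8 (0.911), the ultraviolet-B receptor. TT8 ran closest to AT5G09760 (0.951) and AT1G28530 (0.951), MYB12 to AT1G77330 (0.927) and EGL3 to ATK1 (0.901).

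Among the regulators themselves PAP1 and TT8 ran together (r = 0.80), as did PAP1 and MYB111 (0.69), whereas EGL3 ran against MYBL2 (-0.79). MYB12 and MYB111 gave 0.58 and MYB12 and PAP1 0.10. PAP2 and MYB11 were left out of this ranking because they did not pass the filter at 12 h.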

How the data were processed

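Gene levels of 24 seedling libraries came as 2 tables, of 23390 genes at 1 h and 23282 at 12 h, whose TPM values the authors computed and deposited. Upstream software listed in the submitters' processing notes was HISAT2 2.1.10 and fastp 0.20.1, with DESeq2 1.26.0 and HTSeq 0.11.2, for build TAIR10. No order is given. Gene lengths and strand setting are not given in the sources used here. Fragments per library were estimated from the steps between small values times reference lengths. They are approximate, since 33.3 to 38.6% of low values came within 0.1 of a whole number.

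Each table was fitted alone with limma 3.58.1 (R 4.3.3) on log2(TPM + 1), for genes of at least 1 TPM in 3 of 12 libraries, with 4 group means, a variance trend and 5 two-sided contrasts. Benjamini-Hochberg adjustment ran over all tested genes. The fit was tested on simulated data. Promoter windows were taken by locus tag from RefSeq TAIR10.1, the deposited tables having no coordinates. Alternatives were pseudocounts of 0.1 and 5, no filter, median-of-ratios and quantile scaling, a replicate block and leaving out each library. Members and gene lists were chosen with earlier results of these data known. Named were all 9 regulators, up to 4 called genes per list and comparison by moderated t, HY5, HYH, DFR, LDOX, TT4 and FLS1, and the 3 most like genes.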

Additional observations from a re-analysis of the deposited data

Results flagged for a closer look

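The response of PAP1 to 1 h of warmth differed between the genotypes. PAP1 went from 71.6 to 80.9 TPM in Col and from 129 to 109 TPM in ino80 (means of 3), and the test of the difference gave -0.41 ± 0.09 on the log2 scale (limma, adjusted p = 0.027). All 3 Col libraries at 27 °C lay above those at 21 °C, and all 3 ino80 libraries at 27 °C lay below those at 21 °C. Over the alternatives the adjusted p ran from 0.0082 to 0.078.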

How the results depend on the processing

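Of 36 calls on regulators among 80 tests, 27 held under all 18 alternatives, and the 9 that did not are named in the report. Leaving out 1 library moved the number of regulators called from 7 to between 4 (Col 27 °C replicate 1) and 7 for warmth in Col at 1 h, from 1 to between 0 and 2 for the interaction at 1 h, from 2 to between 1 and 4 for genotype at 21 °C and 12 h, and from 1 to between 1 and 2 for genotype at 27 °C and 12 h. Smaller relative moves were from 5 to between 4 and 6 for warmth in ino80 at 1 h and between 4 and 5 for warmth in Col at 12 h. For genotype at 1 h they were from 5 to between 4 and 7 at 21 °C and between 5 and 6 at 27 °C. The counts for warmth in ino80 and for the interaction at 12 h did not move. Median-of-ratios scaling gave 0 for the interaction at 1 h, a pseudocount of 5 gave 4 for genotype at 21 °C and 12 h, and a pseudocount of 0.1 gave 2 for genotype at 27 °C and 12 h; the cause was not tested. No called difference turned direction. Signs turned in 14 differences that were not called, of at most 0.15. Under scaling, MYB111 for genotype at 27 °C and 1 h went to 0.01 and 0.02, MYB12 with warmth in Col at 12 h to -0.07 and -0.06, and TTG1 there to 0.00 (quantile). With a pseudocount of 5, MYB12 with warmth in ino80 at 12 h was 0.00 and the PAP1 interaction at 12 h -0.11. With libraries left out, the others ran from -0.08 to 0.11 (EGL3, warmth in ino80, 1 h), 0.00 to 0.19 and -0.04 to 0.01 (MYB12 and MYB111, genotype at 27 °C, 1 h), -0.13 to 0.16 and -0.10 to 0.17 (MYB12, warmth in Col and ino80, 12 h) and -0.21 to 0.07 (MYBL2, genotype at 27 °C, 12 h). Interactions ran from -0.11 to 0.02 (TTG1), -0.15 to 0.04 (EGL3), -0.09 to 0.10 (MYB12) and -0.22 to 0.05 (MYB11) at 1 h, and from -0.19 to 0.32 (PAP1), -0.16 to 0.14 (MYB12) and -0.06 to 0.22 (EGL3) at 12 h.

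The reported fit did not pair libraries by replicate number. Deviations of same-numbered libraries correlated above 0.1 in 2 of 18 pairs at 1 h, against 0 of 36 pairs of different number. At 12 h they did so in 3 of 18, against 8 of 36. A library correlated best with its own number in 9 of 12 cases at 1 h and 1 of 12 at 12 h. With the replicate block, EGL3 with warmth in Col at 12 h (-0.39) was not called and MYB11 for genotype at 21 °C and 1 h (0.37) was. Calls over all genes rose with the block in every 1 h comparison, for example from 6880 to 7102 for genotype at 21 °C. They fell in every 12 h comparison, for example from 147 to 93 for the interaction. Depth limits PAP2 and MYB11 at 12 h, with medians of about 2 and 1 fragments per library, and PAP1 and TT8 at 27 °C.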
